A study of Homo sapiens with 16 samples.

Results

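The genes described here code for the translation initiation factors, the proteins that place a ribosome on the start codon of an mRNA. They were taken by symbol from the deposited count table, as every gene named EIF1 to EIF6, which gave 48 of 26485 genes. Antisense genes (4), eIF2 kinases (4), eIF5A genes (3) and 1 pseudogene with such symbols were left out. The counts come from 16 RNA-seq libraries of total RNA from PC3 cells, a human prostate cancer line, and HeyA8 cells, a human ovarian cancer line. In each line there were 4 treatments, namely mock treatment and transfection with siNT1, siGGGGGC or siCAG. For each of them, 1 library was made at 24 h and 1 at 48 h. siNT1 is the control siRNA, siGGGGGC carries the 6mer GGGGGC at positions 2 to 7 of its guide strand, and siCAG is built on the CAG repeat. The sample titles write siMxy for siGGGGGC and siNT for siNT1, and the treatment labels give the names used here. The sample labels give 1 nM siRNA and the study's methods 10 nM, and which holds for these libraries is not known. Neither line was genetically altered in these samples, and each is a single established line. The libraries held 27937092 to 29971612 reads in PC3 and 29128446 to 31790209 reads in HeyA8. Initiation factor genes took 1.11 to 1.25% of the reads of a PC3 library and 1.25 to 1.36% of the reads of a HeyA8 library.

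Initiation starts when eIF2, bound to GTP and the initiator tRNA, joins the small ribosomal subunit together with eIF1, eIF1A, eIF3 and eIF5. The eIF4F complex (the cap-binding protein eIF4E, the scaffold eIF4G and the helicase eIF4A) brings this subunit to the capped end of the mRNA, and the 4E-binding proteins compete with eIF4G for eIF4E. eIF2B recharges eIF2 with GTP, and eIF5B joins the large subunit once the start codon is found. An siRNA can also silence mRNAs in a miRNA-like way when its seed, the 6mer above, pairs with a match in a 3′ UTR. The match to GGGGGC reads GCCCCC.

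Seed matches were rare in this family. By GENCODE v44, 7 of 48 genes (14.6%) had GCCCCC on the sense strand of their longest 3′ UTR, each of them once, against 5407 of 18025 protein-coding genes of the table (30.0%). The longest 3′ UTR had a median of 1236 nt in the family and 1241 nt over these 18025 genes. The 7 genes were EIF1, EIF1AX, EIF2S2, EIF2S3, EIF4E3, EIF4EBP1 and EIF4G1. The sites of 5 of them are shown as examples of where siGGGGGC could pair by its seed, with the match in capitals and 10 bases on each side, 5′ to 3′ along the mRNA.
EIF1: aaatcttggcGCCCCCtcagtagtaa
EIF1AX: aagggcctttGCCCCCacccttactt
EIF2S2: tgctgtttatGCCCCCattttccttt
EIF4E3: atctgcttgtGCCCCCacccccctat
EIF4G1: ggctgcctggGCCCCCctccaggatg
In hg38 these windows are chr17:41692173-41692198 (plus strand) for EIF1, chrX:20125148-20125173 (minus strand) for EIF1AX, chr20:34088388-34088413 (minus strand) for EIF2S2, chr3:71678730-71678755 (minus strand) for EIF4E3 and chr3:184335067-184335092 (plus strand) for EIF4G1. The windows of EIF1 and EIF4E3 lie beyond the gene ends given in the deposited table (41691646 for EIF1 and, on the minus strand, 71679289 for EIF4E3), so these matches belong to longer transcripts of the newer annotation. Repeats of CTG, which pair with the CAG of siCAG, were short. The longest run in the coding sequence and 3′ UTR was 3 units, reached by 3 genes of the family (6.25%) against 2882 of 18025 genes with 3 units or more, and 0 of 48 genes had 4 units or more against 512 of 18025 genes (2.84%). In the longest coding sequence, 13 of 48 genes (27.1%) held GCCCCC against 42.2% of all, and the scaffold genes EIF4G3 and EIF4G1 held most, with 10 and 8 matches. A match describes the letters and does not show pairing.

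The seed of siGGGGGC also occurs in natural miRNAs, of which the 2 found by bases 2 to 7 in the RefSeq miRNA table (GRCh38.p14) are shown with bases 2 to 8 in capitals.
hsa-miR-4488: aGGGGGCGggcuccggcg
hsa-miR-1237-5p: cGGGGGCGgggccgaagcgcg

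Of the 48 genes, 42 passed the filter on low counts in each line and 6 did not. EIF4A1, the main helicase gene of the cell, was listed at 0 reads in all 16 libraries, and a count of 0 allows up to 3 reads per library. Its exons overlap those of the readthrough gene SENP3-EIF4A1 over 1468 of 5199 bases (28.2%, GENCODE v44), whose row held 11 to 47 reads, and the level of EIF4A1 was therefore not used. The part of this overlap in the zero was not tested. EIF3C and EIF3CL, which encode the same eIF3 subunit, were identical over all 2742 aligned coding bases and had at most 4 and 2 reads in a library. EIF4EBP3 had at most 17 reads and shares 507 of 693 exon bases (73.2%) with ANKHD1-EIF4EBP3. EIF4E1B had at most 2 reads, and EIF1AY did not pass either.

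The lines carried their lineage markers in part. HOXB13, a prostate lineage gene, had 2483 to 15099 normalised reads in PC3 libraries and 9.70 to 69.7 in HeyA8, whereas KLK3 was at 0 in all 16 libraries. PAX8, a marker of ovarian carcinoma, had 1822 to 6631 normalised reads in HeyA8, whereas MUC16 had at most 4.83 there. The leukocyte gene PTPRC had at most 12.3 normalised reads in any library. Normalised reads are counts scaled by TMM, an estimate of relative library size, to the mean library size of the line.

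The siCAG libraries of HeyA8 stood apart. The SD of their log2 ratios to the median of the other 7 libraries of the line was 0.978 at 24 h and 1.18 at 48 h over 10658 genes, against 0.244 to 0.646 for the other 6. Their 24 h and 48 h profiles correlated across genes at r = 0.852, whereas the 24 h and 48 h profiles of the other HeyA8 treatments correlated at 0.965 to 0.990. Their part in the results below was not tested other than by leaving them out. The comparisons within HeyA8 that do not need these libraries were therefore also fitted without them. In PC3 the siGGGGGC library of 48 h was the farthest from the rest, with an SD of 0.718 over 11511 genes against 0.312 to 0.563 for the other 7, and 15.2% of its genes lay over 2-fold from their median. In these bulk samples, fewer cells of a type and less RNA per cell cannot be told apart.

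Mock-treated cells gave the levels of the factors without siRNA. Per kilobase of the transcript with the longest coding sequence, EIF4G2, a relative of eIF4G that lacks the eIF4E-binding site, was highest in PC3, with 13416 normalised reads per kilobase at 24 h and 13000 at 48 h. EIF1 followed with 8400.7 ± 292 (SD, n = 2) and EIF4B, a cofactor of the helicase, with 5687 ± 144. EIF6 came next with 5477 ± 330 and did not differ from EIF4B beyond the spread. In HeyA8, EIF1 was highest with 18868 ± 672, followed by EIF4G2 with 14888 ± 1484 and EIF4B with 14268 ± 1489, and EIF4G2 and EIF4B did not differ beyond their spread. The lowest levels in both lines were those of EIF2B2, EIF4ENIF1 and EIF4E3, with 231 ± 2.85, 151 ± 10.9 and 51.5 ± 3.34 in PC3 and 292 ± 7.72, 180.4 ± 9.56 and 7.12 ± 0.298 in HeyA8. The levels depend on the transcript assumed: with the union of all annotated exons as the length, EIF1 moved to place 8 in PC3 and 6 in HeyA8, and EIF4E3 kept the last place in both.

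The largest complex, eIF3, the scaffold that holds the small subunit, was mostly lower in PC3. Of 12 tested eIF3 genes, 8 were lower in mock PC3 than in mock HeyA8 and 0 higher, and log2 differences of the 12 ran from -1.47 to 0.52. In eIF2B, 0 of 5 genes passed. Over the whole family, 15 of 42 genes were lower and 6 higher in PC3, against 22.0% lower and 29.0% higher of the 15887 genes tested (edgeR quasi-likelihood test over 16 libraries, Benjamini-Hochberg adjusted p under 0.05). The median difference was -0.34 in the family and 0.10 over all genes. EIF3A, the largest eIF3 subunit, had 8841 and 8516 normalised reads in PC3 at 24 and 48 h and 24649 and 23489 in HeyA8, scaled over all 16 libraries. The log2 difference was -1.47 ± 0.18 (SE, n = 2 per line, edgeR adjusted p = 6.84e-05). EIF3D, EIF3F, EIF3H and EIF3M were lower by the same test, with differences of -1.47, -1.36, -1.06 and -0.99.

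Outside eIF3, genes differed both ways between the lines. EIF4E3, a cap-binding relative of eIF4E, had 490.4 and 537.6 normalised reads in PC3 and 73.1 and 68.9 in HeyA8, a log2 difference of 2.85 ± 0.22 (edgeR adjusted p = 2.52e-06, n = 2 per line). EIF4B was lower in PC3 (-1.32 ± 0.17; 10813 and 11206 against 25584 and 29660 normalised reads), as was EIF2A (-1.33 ± 0.19), a factor that can deliver a tRNA apart from eIF2. The 3 subunits of eIF2 split: EIF2S1 (alpha) and EIF2S3 (gamma) were higher in PC3 by 0.85 and 0.77 on the log2 scale and EIF2S2 (beta) was lower at -0.85. The call of EIF2S3 was lost when any 1 of the 4 mock libraries was left out. The 4E-binding proteins split as well, EIF4EBP2 being higher in PC3 (1.53 ± 0.26) and EIF4EBP1 lower (-1.14 ± 0.44). The call of EIF4EBP1 was lost without the HeyA8 mock library of 48 h, without either PC3 mock library and without the term for time. The plot of differences between the mock lines shows these genes by complex. Between 16 and 18 genes passed when any 1 mock library was left out, where 2101 to 2586 genes were lower and 2731 to 3575 higher over all genes, and 26 passed without the siCAG libraries, where 4420 genes were lower and 5220 higher of 15647.

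**Figure D1:**
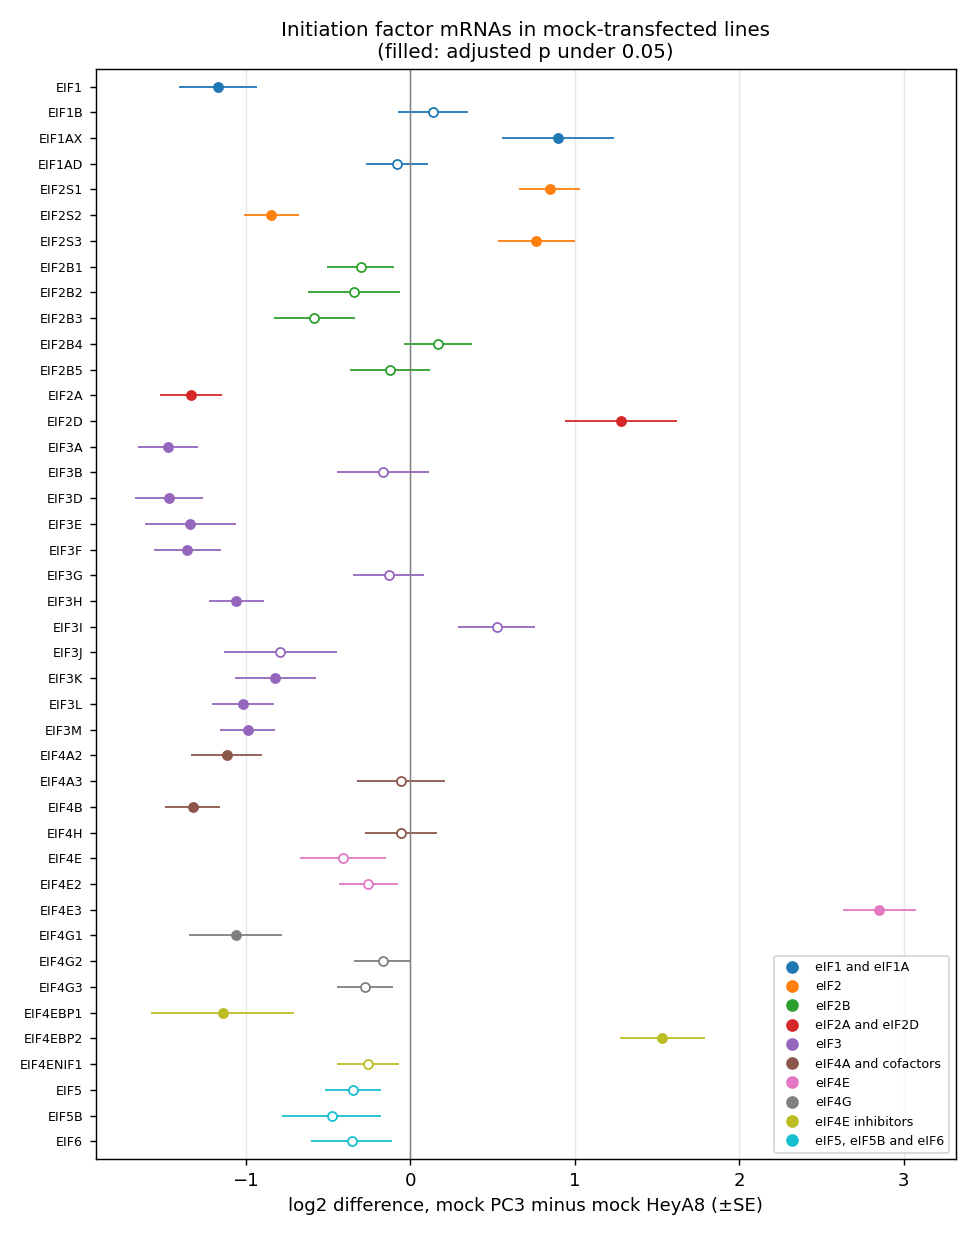
Log2 difference of mock PC3 minus mock HeyA8 (x axis, ± SE) for the 42 tested initiation factor genes (y axis, coloured by complex), with filled points for an adjusted p under 0.05. Most eIF3 genes lie to the left of 0, and EIF4E3 lies furthest to the right at 2.85.

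The first question was whether siGGGGGC changed these mRNAs. In PC3, 1 of 42 genes was lower than with siNT1 (EIF3A) and 4 were higher (EIF4A3, EIF1AD, EIF2S1 and EIF4H), against 6.00% lower and 3.67% higher of 15136 genes tested (edgeR, adjusted p under 0.05). The median log2 fold change was 0.10 in the family and 0.00 over all genes. By role, the genes that passed were 2 of 4 tested genes of eIF4A and its cofactors, 1 of 4 of eIF1 and eIF1A, 1 of 3 of eIF2 and 1 of 12 of eIF3. In eIF2B, eIF4E, eIF4G, the eIF4E inhibitors, EIF2A with EIF2D, and EIF5 with EIF5B and EIF6, 0 genes passed. All 5 eIF2B genes had a fold change above 0 (0.02 to 0.50).

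EIF3A (chr10:119035029-119080822) had 6049 and 5351 normalised reads with siGGGGGC at 24 and 48 h, 9706 and 8780 with siNT1 and 9699 and 9348 with mock. Both siGGGGGC libraries lay below all other PC3 libraries, and the fold change against siNT1 was -0.70 ± 0.15 (log2 ± SE, n = 2, edgeR adjusted p = 0.0334). In HeyA8, EIF3A had 21517 and 16760 with siGGGGGC against 21984 and 22798 with siNT1, a change of -0.24 that did not pass.

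EIF4A3 (chr17:80135214-80147183), a helicase of the eIF4A family that works in the exon junction complex, had 7433 and 8328 normalised reads with siGGGGGC, 4967 and 4872 with siNT1 and 5634 and 5389 with mock. Its fold change was 0.68 ± 0.14 (edgeR adjusted p = 0.0314, n = 2). EIF4H (chr7:74174376-74197099), which stimulates the helicase, had 17796 and 20410 with siGGGGGC, 13165 and 13007 with siNT1 and 11870 and 11850 with mock, a change of 0.54 ± 0.14 (adjusted p = 0.0471 by edgeR, n = 2). For both genes the siGGGGGC libraries were the highest of the line. EIF1AD (chr11:65996545-66002166), whose product resembles eIF1A in part, had 1920 and 2141 with siGGGGGC against 1222 and 1440 with siNT1 (0.61 ± 0.15, edgeR adjusted p = 0.0421, n = 2).

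EIF2S1 (chr14:67360317-67386516), the eIF2 subunit phosphorylated by the stress kinases, had its control libraries lowest. It had 15486 and 16250 normalised reads with siGGGGGC, 11382 and 9538 with siNT1, 17907 and 16635 with mock and 17257 and 14192 with siCAG. The siNT1 libraries were below all other PC3 libraries, and siGGGGGC lay slightly below mock. The fold change was 0.61 ± 0.15 against siNT1 (edgeR adjusted p = 0.0434, n = 2) and -0.12 ± 0.15 against mock (edgeR adjusted p = 0.581). In HeyA8, EIF2S1 had lower values with siNT1 (6542 and 5764) than with mock (8544 and 7852) or siGGGGGC (9179 and 8540), and siCAG had 4196 and 5785, so that siNT1 was not the lowest group there. The change of siNT1 against mock was -0.73 ± 0.15 in PC3 and -0.41 ± 0.24 in HeyA8, and neither passed in the 8-library fits (edgeR adjusted p = 0.155 and 1, n = 2). It was called lower with siNT1 in both lines when edgeR was fitted on the 4 libraries alone, and in PC3 by DESeq2 on 8 libraries.

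The 2 lowest fold changes in PC3 did not pass the test. EIF4EBP1, the 4E-binding protein best known as a target of mTORC1, had 1004 and 498 normalised reads with siGGGGGC, 1595 and 1518 with siNT1, 1167 and 1277 with mock and 1501 and 1717 with siCAG, and its change was -1.08 ± 0.29 (edgeR adjusted p = 0.0536, n = 2). EIF5B, the GTPase of subunit joining, had 2563 and 2474 with siGGGGGC but 7719 and 3348 with siNT1, so the controls themselves were far apart (-1.01 ± 0.32, edgeR adjusted p = 0.0813). Both genes were called lower by DESeq2 and by edgeR without the low-count filter. The latter called 3 lower (EIF3A, EIF4EBP1 and EIF5B) and 3 higher (EIF2S1, EIF4A3 and EIF4H, without EIF1AD), against 1223 and 630 of 20684 genes.

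These calls were close to the threshold and depended on the libraries fitted. Leaving out the siNT1 library of 24 h or of 48 h, or the siGGGGGC library of 48 h, which stood farthest from the rest, left 0 genes. Over all genes, 0 passed without either siNT1 library, and 536 were lower and 81 higher of 15454 without the siGGGGGC library of 48 h. Leaving out the siGGGGGC library of 24 h gave 9, where 2111 genes were lower and 1591 higher of 15723. Further, 0 genes passed with the 4 libraries alone or with all 16 in 1 fit, 1 (EIF4A3) passed without the term for time, and 2 (EIF3A and EIF4A3) passed without the siCAG libraries. In these fits, over all genes, 363 were lower and 75 higher of 14648 with the 4 libraries, 240 and 93 of 15887 with all 16, 448 and 177 of 15136 without the term for time, and 874 and 327 of 14932 without the siCAG libraries. Against mock, 5 genes were lower (EIF1AX, EIF2A, EIF3A, EIF4E and EIF5B) and 5 higher (EIF1AD, EIF4A3, EIF4EBP2, EIF4G2 and EIF4H), with 12.3% lower and 8.83% higher over all genes. The comparisons with siNT1 and with mock share the siGGGGGC libraries.

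In HeyA8, 0 of 42 genes passed for siGGGGGC against siNT1 with edgeR, where 0 of 13872 genes did (0% in each direction), and 0 passed with DESeq2, which called 263 lower and 55 higher of all genes. At an unadjusted p under 0.05 by edgeR, 1 gene was lower and 2 were higher, against 851 and 501 of 13872 genes. The lowest was EIF4EBP1, as in PC3, with 1456 and 905 normalised reads with siGGGGGC against 2540 and 2713 with siNT1 and 1951 and 2530 with mock (-1.21 ± 0.46, edgeR adjusted p = 0.489, n = 2). Both siGGGGGC libraries lay below both siNT1 and both mock libraries, in HeyA8 as in PC3. EIF3B (-0.70 ± 0.32) and EIF2D (-0.53 ± 0.35) followed. EIF3B, an eIF3 core subunit, had 11347 and 7058 reads against 13590 and 15264, and EIF2D had 1062 and 591 against 1043 and 1304, so that EIF2D was low at 48 h alone.

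The highest values in HeyA8 were those of EIF4EBP2, EIF1AD and EIF2S1. EIF4EBP2, a second 4E-binding protein, had 6589 and 11044 normalised reads with siGGGGGC, 5260 and 4758 with siNT1 and 3561 and 2930 with mock (0.78 ± 0.31 against siNT1, edgeR adjusted p = 0.502, n = 2). EIF1AD had 1421 and 1849 against 1065 and 1111 with siNT1 (0.58 ± 0.22, edgeR adjusted p = 0.489), and EIF2S1 changed by 0.53 ± 0.24 (edgeR adjusted p = 0.538). Without the siCAG libraries, a choice made after these were seen to stand apart, 2 genes passed, EIF4EBP1 lower at -1.15 (edgeR adjusted p = 0.0488) and EIF2S1 higher at 0.54 (edgeR adjusted p = 0.0481). In that fit 347 genes were lower and 130 higher of 13549. With the 4 libraries alone, EIF3B and EIF4EBP1 were called lower and EIF2S1 and EIF4EBP2 higher, against 769 and 411 of 13312 genes. The control differed from mock for some of these genes in a like fit of siNT1 and mock. There EIF2S1 was called lower and EIF4E2, EIF4EBP1 and EIF4EBP2 higher with siNT1, against 671 and 903 of 13298 genes.

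**Figure D2:**
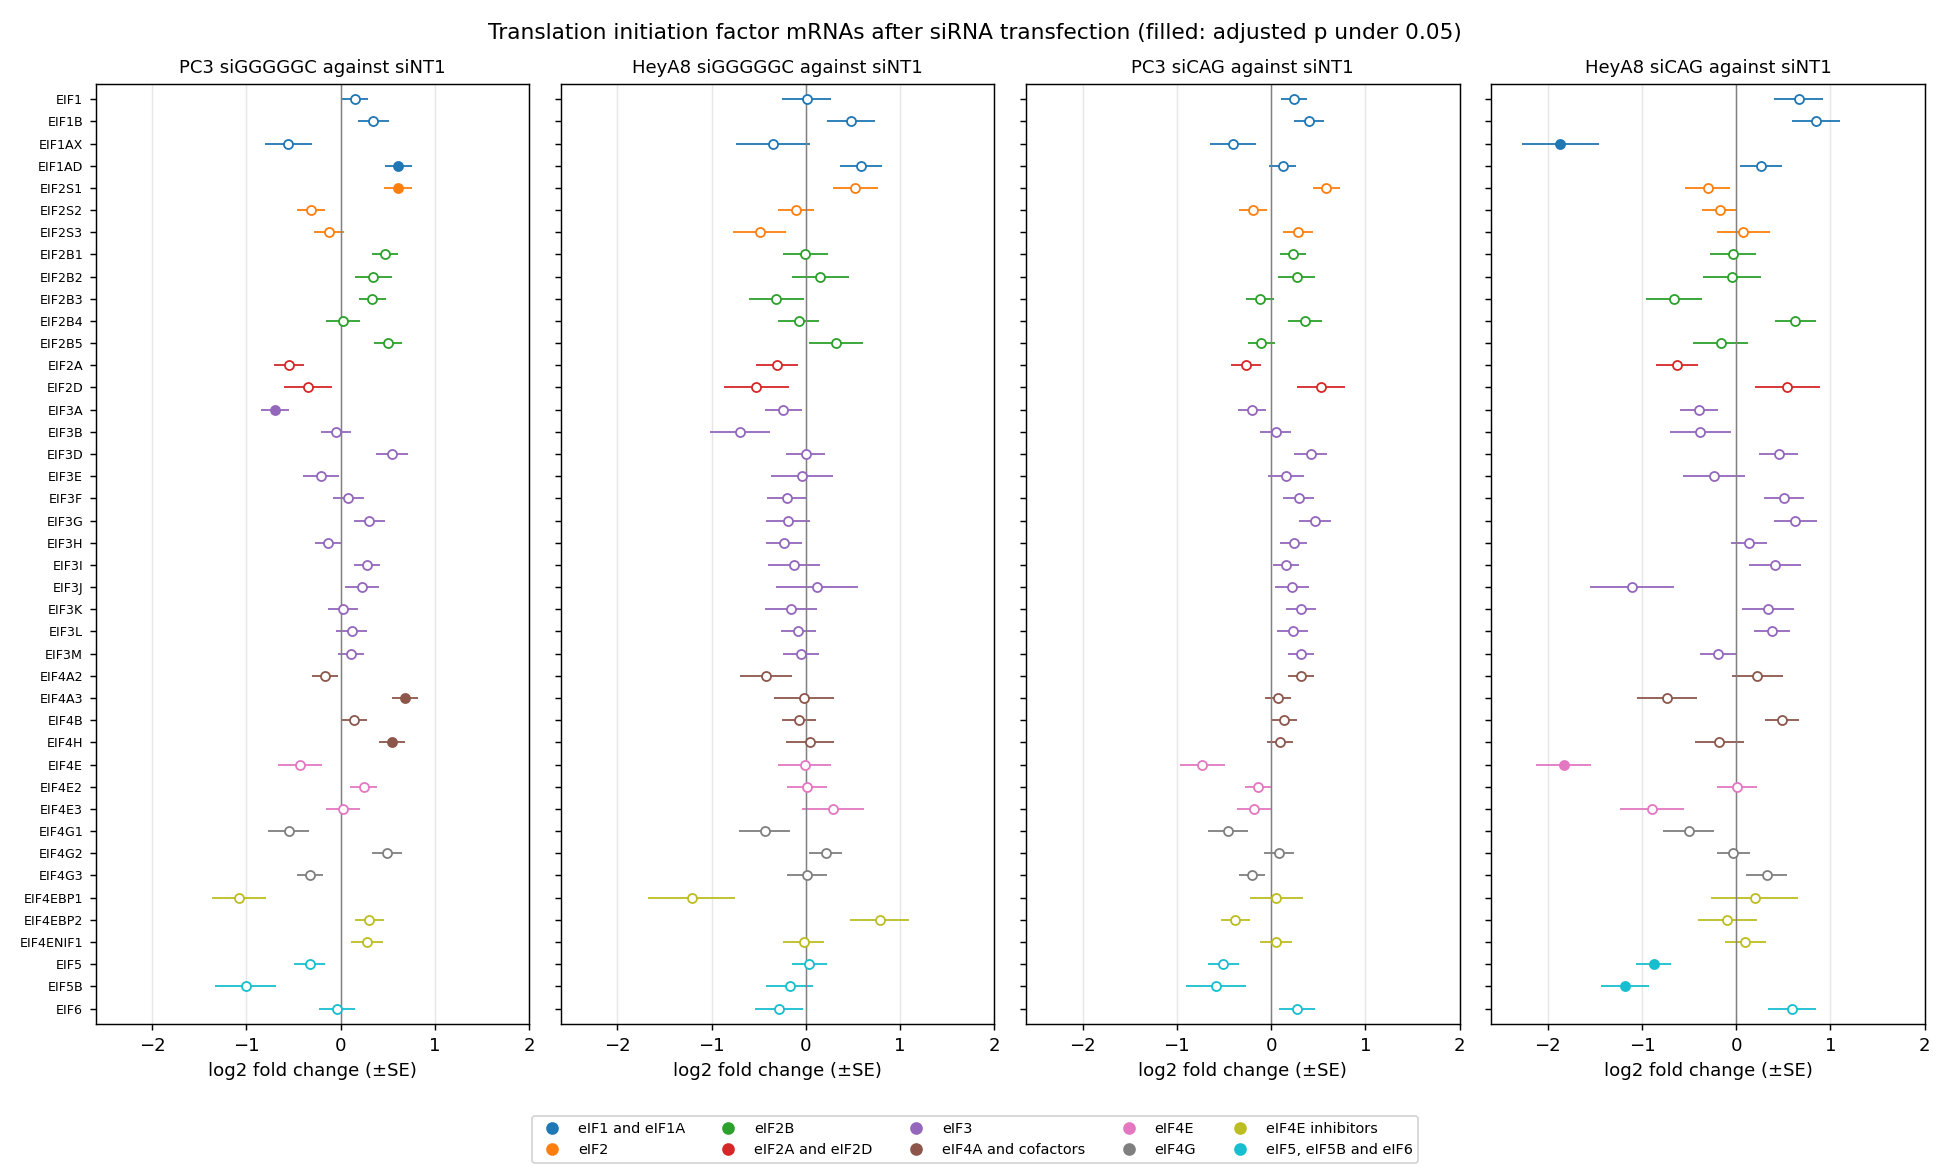
Log2 fold change (x axis, ± SE) of the 42 tested initiation factor genes (y axis, coloured by complex) for siGGGGGC and siCAG against siNT1 in each line, with filled points for an adjusted p under 0.05. siGGGGGC gives 5 filled points in PC3 and 0 in HeyA8, and siCAG gives 0 in PC3 and 4 in HeyA8, all to the left of 0.

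The 7 genes with a GCCCCC match in the 3′ UTR were compared with the other 35 tested genes as a description. None of the 5 genes that passed in PC3 held a match in its 3′ UTR, and EIF4H held 2 in its coding sequence. The median log2 fold change with siGGGGGC was -0.31 for the genes with a match and 0.14 for those without in PC3, and -0.35 and -0.04 in HeyA8, with 5 of 7 genes with a match below 0 in each line. Of the 35 without a match, 12 lay below 0 in PC3 and 23 in HeyA8. Over all genes, 7534 of 15136 lay below 0 in PC3 and 6875 of 13872 in HeyA8. EIF4EBP1 was the lowest of the 7 in both lines. In PC3 and HeyA8, EIF1AX had -0.55 and -0.35, EIF4G1 had -0.55 and -0.44, EIF2S2 had -0.31 and -0.10, and EIF2S3 had -0.13 and -0.49. EIF4G1 and EIF2S3 were below siNT1 mostly at 48 h. With siGGGGGC in PC3, EIF4G1 had 25755 and 13822 normalised reads at 24 and 48 h, against 28022 and 28059 with siNT1. In HeyA8 it had 45878 and 27284 against 47959 and 47469. EIF2S3 had 12448 and 9543 against 11829 and 12102 in PC3, and 5557 and 3181 against 5966 and 6106 in HeyA8. EIF1 and EIF4E3, whose matches lie beyond the gene ends of the deposited table, were above 0 in both lines. EIF1 had 0.15 and 0.01, and EIF4E3 had 0.02 and 0.28. Low values of genes with a match were not confined to siGGGGGC. With siCAG, EIF4G1 had 21895 and 19340 normalised reads in PC3 and 45555 and 24702 in HeyA8. EIF1AX in HeyA8 had 573 and 1614 with siCAG and 2871 and 3001 with siGGGGGC. EIF2S3 lay above siNT1 with siCAG, at 13865 and 15228 in PC3 and 6196 and 6506 in HeyA8. The part of the matches, or of their place, in these values was not tested.

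The second siRNA, siCAG, was compared with the same siNT1 libraries. In HeyA8, 4 of 42 genes were lower than with siNT1 and 0 were higher, against 4.93% lower and 2.88% higher of 13872 genes (edgeR, adjusted p under 0.05), and the median log2 fold change was -0.03 in the family and -0.01 over all genes. They were EIF4E, EIF1AX, EIF5 and EIF5B. Of the 12 tested eIF3 genes and the 5 eIF2B genes, 0 passed, with fold changes from -1.11 to 0.63 and from -0.66 to 0.63. These siCAG libraries are the ones that stood apart.

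EIF4E (chr4:98878456-98930635), the cap-binding protein itself, had 613 and 1056 normalised reads with siCAG at 24 and 48 h, 2920 and 2937 with siNT1 and 2988 and 2878 with mock, so the siCAG libraries lay far below all others of the line. The fold change was -1.83 ± 0.29 (log2 ± SE, n = 2, edgeR adjusted p = 0.0209). In PC3 the same gene had 1509 and 816 with siCAG, 2254 and 1550 with siNT1 and 2583 and 2561 with mock, a change of -0.73 ± 0.24 that did not pass (edgeR adjusted p = 0.243, n = 2). Against mock the change in PC3 was -1.20 ± 0.24 and passed (edgeR adjusted p = 0.0471, n = 2). That comparison called 1 of 42 genes lower and 0 higher, against 1.76% and 0.826% of 15136 genes.

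EIF1AX (chrX:20124518-20141848), which opens the small subunit for scanning, had 573 and 1614 normalised reads with siCAG in HeyA8 against 3688 and 3794 with siNT1 (-1.86 ± 0.41, edgeR adjusted p = 0.0449, n = 2). In PC3 it had 6825 and 3388 against 8282 and 4985, where both treatments were lower at 48 h than at 24 h. EIF5 (chr14:103334002-103345024), which makes eIF2 hydrolyse its GTP, had 7537 and 8393 with siCAG in HeyA8 against 13830 and 15401 with siNT1 (-0.88 ± 0.19, edgeR adjusted p = 0.0417). In PC3 it had 12675 and 8309 against 16257 and 13218 (-0.51 ± 0.16, edgeR adjusted p = 0.239).

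EIF5B (chr2:99337371-99400265) had 3511 and 5936 normalised reads with siCAG in HeyA8 against 10200 and 10836 with siNT1 (-1.18 ± 0.25, edgeR adjusted p = 0.0417, n = 2). In PC3 it had 5239 and 2167 against 7719 and 3348, and these groups overlapped, although siCAG was below siNT1 by like amounts at each time (log2 -0.56 at 24 h and -0.63 at 48 h). The fitted change did not pass (-0.59 ± 0.32, edgeR adjusted p = 0.46). The highest changes in HeyA8 were those of EIF1B, EIF1 and EIF2B4, at 0.85, 0.66 and 0.63, and none of them passed in the 8-library edgeR fit. All 3 were called higher with all 16 libraries in 1 fit (5 lower and 6 higher in the family) and without the siCAG library of 48 h (8 lower and 11 higher), and EIF1B also by DESeq2 (4 lower and 1 higher). Over all genes, DESeq2 called 1507 lower and 1150 higher of 13872. EIF1B had 1176 and 1612 with siCAG against 741 and 778 with siNT1. EIF1 had 28078 and 17793 against 13739 and 15125, and EIF2B4 had 1649 and 1479 against 956 and 1071. EIF1B and EIF1, paralogs that guard start codon choice, lay above siNT1 in both siCAG libraries of the line in which EIF1AX lay below it.

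The 4 HeyA8 calls were the same with RLE size factors, without the low-count filter, without the term for time and against mock. With the siNT1 library of 24 h or 48 h left out 0 genes passed, where 53 genes were lower and 1 higher of 14375, and 42 and 0 of 14418. Without the siCAG library of 24 h 12 passed (9 lower and 3 higher), without that of 48 h 19 passed, and with the 4 libraries alone 2 passed (EIF1AX and EIF4E). Over all genes, 2498 were lower and 2022 higher of 14332 without the 24 h library, 3119 and 1571 of 14260 without the 48 h library, and 432 and 148 of 13466 with the 4 libraries alone.

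In PC3, 0 of 42 genes passed for siCAG against siNT1 with edgeR, against 1.16% lower and 0.0396% higher of 15136 genes, and 1 (EIF2S1, higher) passed with DESeq2, which called 458 lower and 114 higher of all genes. At an unadjusted p under 0.05 by edgeR, 3 genes were lower and 4 higher, against 1288 and 749 of 15136 genes. The 3 lowest were EIF4E, EIF5B and EIF5, and the 3 highest were EIF2S1 (0.59 ± 0.15, edgeR adjusted p = 0.142), EIF2D (0.53 ± 0.25) and EIF3G (0.46 ± 0.17). For EIF2S1 the low siNT1 libraries given above are the control here too, and against mock its change was -0.14 (edgeR adjusted p = 0.629). EIF2D, which can release or deliver tRNA on its own, had 4122 and 5905 normalised reads against 3166 and 3764, and EIF3G, an eIF3 subunit that binds RNA, had 6276 and 7936 against 5172 and 5129. Fitted on the 4 libraries alone, 11 genes passed, 6 lower (EIF1AX, EIF4E, EIF4EBP2, EIF4G1, EIF5 and EIF5B, among them the 4 called in HeyA8) and 5 higher (EIF1B, EIF2D, EIF2S1, EIF3D and EIF3G), where 1624 were lower and 722 higher of 14669 genes.

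**Figure D3:**
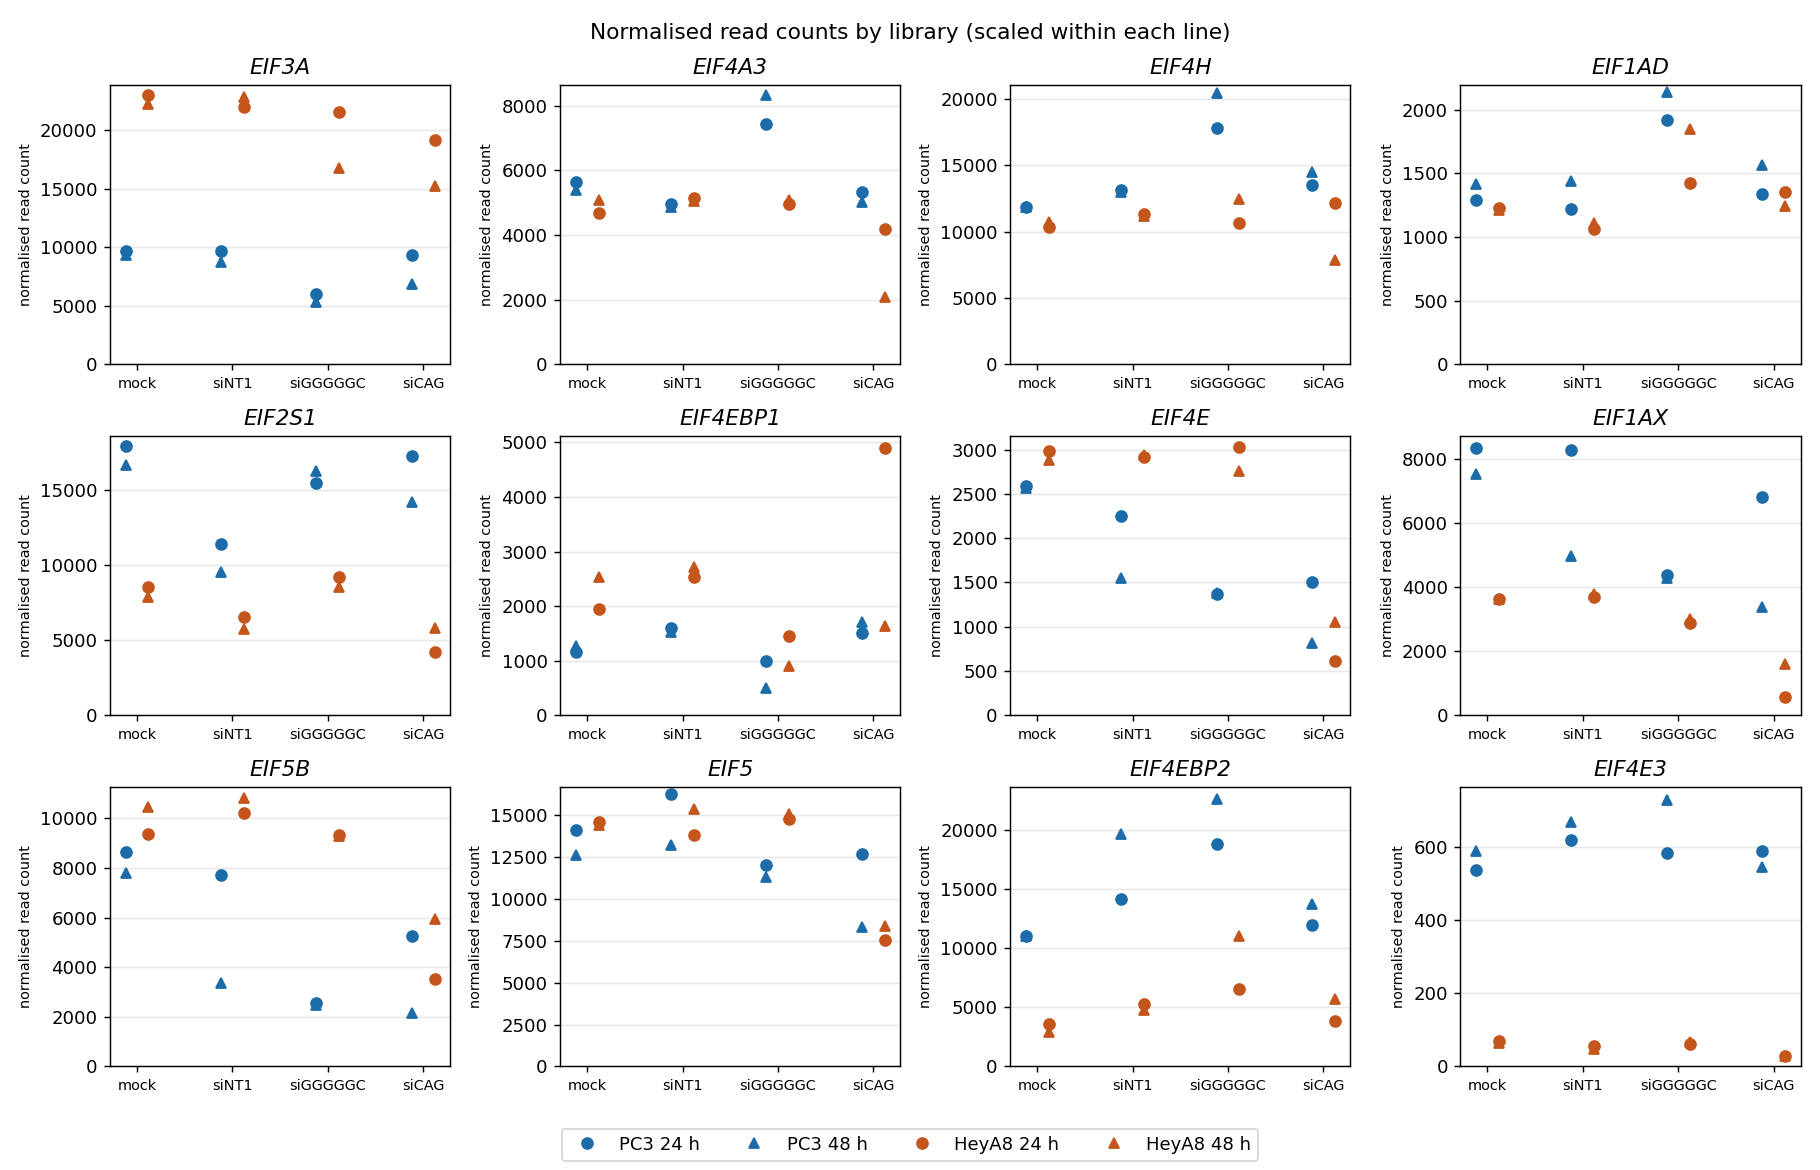
Normalised reads (y axis, from 0, scaled within each line) of 12 initiation factor genes in each of the 16 libraries by treatment (x axis), with circles for 24 h and triangles for 48 h, blue for PC3 and orange for HeyA8. EIF4E and EIF1AX lie lowest with siCAG in HeyA8 (573 to 1614), EIF2S1 is lower with siNT1 than with mock or siGGGGGC in both lines, and EIF4E3 is at 27.5 to 68.2 in HeyA8 and 538.1 to 730.5 in PC3.

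The difference in response between the lines was tested itself, over all 16 libraries. For siGGGGGC, 0 of 42 genes and 0 of 15887 genes passed (0% in each direction), with 0 genes of the family at an unadjusted p under 0.05, against 700 lower and 354 higher over all genes. With DESeq2 0 of the family passed, where 9 genes were lower and 6 higher. For siCAG, 0 of 42 genes passed with edgeR, against 0.252% lower and 0.384% higher of all genes, whose median difference was -0.13. With DESeq2 0 of 42 passed too, where 332 genes were lower and 339 higher of 15887. By edgeR, at an unadjusted p under 0.05 there was 1 gene with a lower and 4 with a higher response in PC3, against 1435 and 892 of 15887 genes. EIF1AX, EIF3J and EIF4E had the largest differences, at 1.37 ± 0.48, 1.23 ± 0.49 and 1.00 ± 0.37 on the log2 scale (edgeR adjusted p = 0.235, 0.28 and 0.251). EIF3J, a loosely bound eIF3 subunit, had 1471 normalised reads with siCAG in HeyA8 at 24 h but 5381 at 48 h, against 6179 and 7003 with siNT1. In these 16-library fits, the responses of genes called in 1 line were therefore not shown to differ between the lines. EIF1AX and EIF4E were exceptions without the HeyA8 siCAG library of 48 h, a fit that leaves 1 siCAG library in HeyA8. A p that misses the threshold does not show that responses were alike.

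The control siRNA and time were compared in the same way. With siNT1 against mock, 0 of 42 genes passed with edgeR in either line, against 0.0264% lower and 0.205% higher of all genes in PC3 and 0% in HeyA8. At an unadjusted p under 0.05 there was 1 lower and 1 higher gene in PC3, against 584 and 780 of all genes, and 0 in HeyA8, against 88 and 89. Further, DESeq2 called 1 gene in PC3 (EIF2S1, lower) and 0 in HeyA8, where it called 93 lower and 175 higher of all genes in PC3 and 1 lower and 0 higher in HeyA8. From 24 to 48 h, over 4 treatments, 0 genes of the family passed with edgeR in either line, against 0.0264% lower and 0% higher of all genes in PC3 and 0% in HeyA8. With DESeq2 0 passed too, where 115 genes were lower and 93 higher in PC3 and 33 and 28 in HeyA8. Without the siCAG libraries of HeyA8, 0 genes of the family passed with edgeR for siNT1 against mock or for time, where 0 and 0, and 2 and 4, of 13549 genes were lower and higher. At an unadjusted p under 0.05, 3 genes were lower at 48 h in PC3, against 1078 lower and 954 higher over all genes, and 1 was higher in HeyA8, against 520 and 359.

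Other genes of the translation pathway, 45 in all, were counted from a list of eIF5A genes, eIF2 kinases, elongation and release factors, poly(A)-binding proteins, accessory factors, the ATF4 arm and mTORC1. In PC3 with siGGGGGC against siNT1, 5 of 45 were lower and 0 higher (6.00% and 3.67% of all genes), and the smallest p were those of AKT1S1, an inhibitory subunit of mTORC1 (-1.75 ± 0.19, edgeR adjusted p = 0.00773), and EIF5A, an elongation factor that helps ribosomes through stalls (-1.70 ± 0.31, edgeR adjusted p = 0.0228). EIF5A had 7245 and 3001 normalised reads with siGGGGGC in PC3 against 15913 and 15754 with siNT1. In HeyA8, 0 of 44 tested passed, the first being again AKT1S1 (-2.54 ± 0.25, edgeR adjusted p = 0.0815) and EIF5A (-2.15 ± 0.44, edgeR adjusted p = 0.239).

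With siCAG, 3 of 45 genes were lower in PC3 and 0 higher (1.16% and 0.0396% of all genes), and 4 of 44 were lower and 2 higher in HeyA8 (4.93% and 2.88% of all genes). In PC3 the smallest p were those of BZW2 (-1.99 ± 0.18, edgeR adjusted p = 0.00291), whose product resembles part of eIF5, and PABPC4, a poly(A)-binding protein (-2.31 ± 0.23, edgeR adjusted p = 0.00378). In HeyA8 they were those of PABPC4 (-3.18 ± 0.35, edgeR adjusted p = 0.00796), which had 2673 and 1193 normalised reads against 16374 and 16480, and EIF2AK3, the eIF2 kinase PERK (-2.42 ± 0.28, edgeR adjusted p = 0.00872). Between the mock lines 14 of 45 were lower and 7 higher in PC3 (22.0% and 29.0% of all genes), and the smallest p were those of EEF1A2, an elongation factor, and GSPT2, a release factor, both higher in PC3. The siCAG response differed between the lines for 1 of 45 and the siGGGGGC response for 0. The gene was DDIT3, a stress factor downstream of ATF4 (-2.14 ± 0.35, edgeR adjusted p = 0.0268). In PC3, DDIT3 had 706 and 927 normalised reads with siCAG, 783 and 887 with siNT1 and 352 and 467 with mock. In HeyA8 it had 744 and 745 with siCAG, 139 and 251 with siNT1 and 131 and 207 with mock. DDIT3 with siCAG thus lay above mock in both lines, and in PC3 siNT1 lay above mock as well. The difference was fitted against siNT1, and the part of this control in it was not tested. With siNT1 against mock in PC3, 1 of 45 was higher (0.205% of all genes), the stress factor ATF3 (2.91 ± 0.25, edgeR adjusted p = 0.0159), which had 595 and 486 normalised reads with siNT1 against 70.0 and 71.8 with mock. With siNT1 against mock in HeyA8, and from 24 to 48 h in either line, 0 genes of the list passed with edgeR. At an unadjusted p under 0.05 there were 1 lower and 5 higher for siNT1 in PC3, 0 lower and 1 higher for siNT1 in HeyA8, 3 lower and 2 higher for time in PC3, and 0 lower and 2 higher for time in HeyA8, beside the counts over all genes at this threshold given above.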

How the data were processed

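RNA from PC3 and HeyA8 cells was sequenced in 16 libraries. Per the study's methods and the labels, the authors trimmed reads with Trimmomatic, aligned them to hg38 (Tophat or STAR, by the methods; STAR and HTSeq are named in the submitters' processing notes) and deposited raw read counts per gene (HTSeq, Ensembl 78), without normalization; strand use is not given in the sources used here. Read counting can leave overlapping or near-identical genes low, and its part in the low rows here was not tested.

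Counts were fitted per line over 8 libraries with edgeR 4.0.16 in R 4.3.3 (filterByExpr, TMM, glmQLFit and glmQLFTest, terms for treatment and time, Benjamini-Hochberg over all genes); the 16-library fit had terms for line with treatment and time within line. The 24 h and 48 h libraries of a treatment were taken here as its 2 replicates and numbered by time, so time acts as the replicate block. The study's methods describe lysing separate wells at 24 h and at 48 h, for a transfection at another dose than the labels give and without siCAG. Each treatment thus has 1 library per time. The p-values and SE measure only the spread left after the terms for treatment and time. This spread holds any change of a treatment effect from 24 to 48 h. It also holds differences between libraries that may be technical, and the 2 cannot be told apart. The common coefficient of variation was 18.0% in PC3 and 28.2% in HeyA8; counts and limits from a count of 0 cover counting error only. The fit was tested on simulated counts with 1 spread for all genes of a line and no change with time. That test cannot show how the fit behaves where libraries stand apart or effects change with time.

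The members and lists were chosen with earlier results of these data known. Named genes were those with an adjusted p under 0.05 (at most 8), plus the 3 lowest and 3 highest fold changes among genes with a mean of at least 100 normalised reads, and for levels the 3 highest and 3 lowest; for other comparisons, the 8 smallest adjusted p under 0.05. Genes with a GCCCCC match, EIF3J, the eIF2 subunits and 4E-binding proteins between the lines, and genes called with mock as control were named after their values were seen. 3′ UTRs and lengths came from GENCODE v44. The planned length was the union of exons; that of the transcript with the longest coding sequence is reported instead, since the union reached 37761 nt for EIF3E. Alternatives were RLE size factors, no filter, DESeq2 1.42.0, no time term, 4 or 16 libraries, mock as control, single times and each library left out.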

Additional observations from a re-analysis of the deposited data

How the results depend on the processing

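Counts of called initiation factor genes against siNT1 depended on the libraries fitted. For siGGGGGC in PC3 (5 genes), DESeq2 called 11 (of all 15136 genes 1684 lower and 1135 higher), mock as the control 10, the fit without the siCAG libraries 2, the fit without the time term (no replicate block) 1, and the 4 libraries alone or all 16 in 1 fit 0; leaving out a library gave 0 to 9. For siCAG in PC3 (0 genes), DESeq2 called 1 and the 4 libraries alone 11. Mock as the control called 1 (EIF4E, lower), where 266 genes were lower and 125 higher of 15136. For siCAG in HeyA8 (4 genes), the 4 libraries alone called 2, all 16 in 1 fit 11 (5 lower and 6 higher, and of all 15887 genes 1301 lower and 2028 higher), and leaving out a library 0 to 19; in the 16-library fit the median over all genes rose from -0.01 to 0.12. For siGGGGGC in HeyA8 (0 genes), the 4 libraries alone called 4 (of all 13312 genes 769 lower and 411 higher) and the fit without the siCAG libraries 2. For siNT1 against mock (0 genes), the 4 libraries alone called 1 in PC3 (EIF2S1, lower), with 97 lower and 156 higher of all 14598 genes. In HeyA8 they called 4, EIF2S1 lower and EIF4E2, EIF4EBP1 and EIF4EBP2 higher, with 671 lower and 903 higher of all 13298 genes. DESeq2 called 1 in PC3. For the siCAG response between the lines, leaving out a library gave 0 to 5, the 5 without the HeyA8 siCAG library of 48 h, where 305 genes were lower and 738 higher of 16397. The cause was not tested. Dropping the time block changed no other count of called initiation factor genes by more than 1.5 times. Over all genes it took the siCAG response between the lines from 40 lower and 61 higher to 18 and 33, siNT1 against mock in PC3 from 4 and 31 to 0 and 6, and siGGGGGC in PC3 from 908 and 555 to 448 and 177.

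EIF2S1 turned in direction with mock as the control in PC3, to -0.12 for siGGGGGC and -0.14 for siCAG. Of 371 values of 34 fold changes of named genes under other settings, 298 kept direction and side of the threshold, 43 lost the call, 28 gained it and 2 reversed; 11 of 76 medians moved beyond the spread between times. All 12 levels per kilobase changed with the length used, and the GCCCCC matches fell from 7 genes to 6 when the UTR of the longest open reading frame was read instead. With 2 libraries per treatment, the 4-library fits rest on 1 residual degree of freedom. A lone library left by leaving out its partner is assumed to vary like the other groups.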
